A study of Rattus norvegicus with 12 samples.

Results

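The genes described here carry sodium, acid-base equivalents, phosphate, sulphate and potassium across epithelial membranes, together with the subunits of the sodium pump and of the vacuolar proton pump. A gene was taken as a member where a probe set of the deposited table had exactly 1 annotated symbol that began with Slc4a, Slc8a, Slc9a, Slc12a, Slc13a, Slc26a, Slc34a, Scnn1, Atp1a, Atp1b, Atp6v or Kcnj, and it was read from the probe set with the highest mean over the 12 arrays. This gave 84 genes of the 14217 that the table names singly, measured by 112 probe sets. The largest families were Atp6v with 20 genes and Kcnj with 15, followed by Slc4a, Slc12a and Slc26a with 8 each. Slc4a1ap, an adaptor protein that met the symbol rule, is not a transporter.

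The study set male rats dosed with the chlorinated solvent trichloroethylene (TCE) against males that had only corn oil, its vehicle. The oral dose was 16 mg/kg each day over 3 days, in an oil volume of 5 ml/kg, with death 24 h after the final dose. Rats were 7 to 9 weeks old and weighed 190 to 240 g, and the labels call the strain F-344 (Wistar-derived). Liver and renal cortex were each represented by 3 treated and 3 control rats, giving 4 groups of 3 arrays, and whether a number shared by the 2 tissues marks a shared rat is not given in the labels. Each array held RNA of a piece of whole tissue, so that fewer cells of a type and less RNA per cell cannot be told apart in any value given here.

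Transport along the nephron is divided between segments. As background, the proximal tubule reclaims phosphate, bicarbonate, sulphate and organic acids with sodium, the thick ascending limb and the distal convoluted tubule take up sodium chloride, and the collecting duct fine-tunes sodium through the epithelial sodium channel and secretes acid or base through its intercalated cells. In every cell the sodium pump sets the gradient that drives this traffic, while the vacuolar proton pump acidifies endosomes and lysosomes and, in intercalated cells, also the urine.

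Values were log2 expression levels as deposited, with a shared lowest value of 2.17. A value was called dim where it lay below the median of all probe sets on its array, which ran from 3.51 to 3.54 for liver arrays and from 3.88 to 3.96 for kidney arrays. Across probe sets, the correlation within a group ran from 0.9926 to 0.997. The tissue labels were borne out by marker genes: the summed level of hepatocyte markers was 18.38 to 18.44 in liver, and that of proximal tubule markers 17.15 to 17.31 in renal cortex. Hepatocyte markers were also detected in the renal cortex arrays at a level that varied, from 6.26 to 11.07 in treated and from 8.22 to 12.95 in control rats. With 3 arrays a group, it is their number that limits precision.

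Promoters are shown for 3 members that were bright in kidney and dim or nearly so in liver. They are the proximal tubule phosphate cotransporter Slc34a1 and the proton pump subunits Atp6v0a4 and Atp6v1b1 of intercalated cells. RefSeq promoters of rat assembly GRCr8 were matched for 71 of the 84 members. Each sequence is the 250 bases before the annotated start, read in the direction of the gene. Capitals mark the letters GTTAAT, the core of the site read by HNF1 factors of liver and proximal tubule, or GTAAACA, the core read by forkhead factors such as the intercalated cell regulator Foxi1, on either strand. The capitals of the 2 motifs do not overlap. Each promoter shown holds a match, while those of Atp6v1g3 and Slc9a3, also bright in kidney and dim in liver, hold none. The 2 matches in Slc34a1 began 147 and 120 bases before the start, that in Atp6v0a4 62 bases before it and that in Atp6v1b1 93 bases before it.
Slc34a1 (chr17:9238984-9239233, minus strand): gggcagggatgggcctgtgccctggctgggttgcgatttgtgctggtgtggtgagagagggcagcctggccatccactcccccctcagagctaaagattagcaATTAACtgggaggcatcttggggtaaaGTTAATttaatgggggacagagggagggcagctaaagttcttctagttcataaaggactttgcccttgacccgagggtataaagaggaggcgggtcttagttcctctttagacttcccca
Atp6v0a4 (chr4:67809093-67809342, minus strand): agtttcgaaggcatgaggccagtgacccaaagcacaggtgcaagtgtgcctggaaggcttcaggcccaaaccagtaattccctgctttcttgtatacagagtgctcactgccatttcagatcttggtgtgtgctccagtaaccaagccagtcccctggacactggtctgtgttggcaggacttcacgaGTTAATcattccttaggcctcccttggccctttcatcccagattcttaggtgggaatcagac
Atp6v1b1 (chr4:117781194-117781443, plus strand): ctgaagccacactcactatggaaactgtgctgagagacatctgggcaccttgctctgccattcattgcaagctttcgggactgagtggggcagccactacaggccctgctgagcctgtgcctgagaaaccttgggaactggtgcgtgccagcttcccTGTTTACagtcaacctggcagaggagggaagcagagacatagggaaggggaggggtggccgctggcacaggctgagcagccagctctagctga
The HNF1 letters occurred in 4 of the 71 member promoters (5.63%) against 6.45% of all 33469 promoters of the table, and the forkhead letters, chosen after the values had been seen, in 3 (4.23%) against 3.21%. The forkhead letters were found in Atp6v1b1, Slc12a1 and Slc34a3, all higher in kidney, as were the genes of 35 of the 71 promoters. Of the other letters searched, on both strands, the E-box CACGTG occurred in 9.86% of member promoters against 5.59% of all, the HNF4 core CAAAGT in 16.9% against 12.9% and the D-box core TTATGTAA in 1.41% against 0.828%. These matches are letters in a window and were not tested for binding.

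Control liver and control renal cortex differed in most members. Of 62 members bright enough to be tested, 45 were higher in renal cortex and 7 higher in liver at an adjusted p under 0.05 (limma, Benjamini-Hochberg over 10650 genes), against 38.9% and 29.7% of all genes tested. The median log2 difference, liver minus kidney, was -1.95 over the members and -0.0953 over all genes. Centring each array on its median moved the median of all genes to 0.315 and the split to 40 higher in kidney and 15 higher in liver. Liver values were dim on every array for 17 of the 45 members higher in kidney. Where a value lay below its array's median, it was set to that median before a fold was taken, so that such folds are lower bounds. On that scale 21 of the 62 members were at least 16-fold higher in kidney, against 4.9% of all genes tested, and 1 was at least 16-fold higher in liver, against 3.55%. In treated rats 52 members differed between the tissues by the same test, 47 of them also called in control rats. Of all genes tested in treated rats, 67.7% were called.

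**Figure D1:**
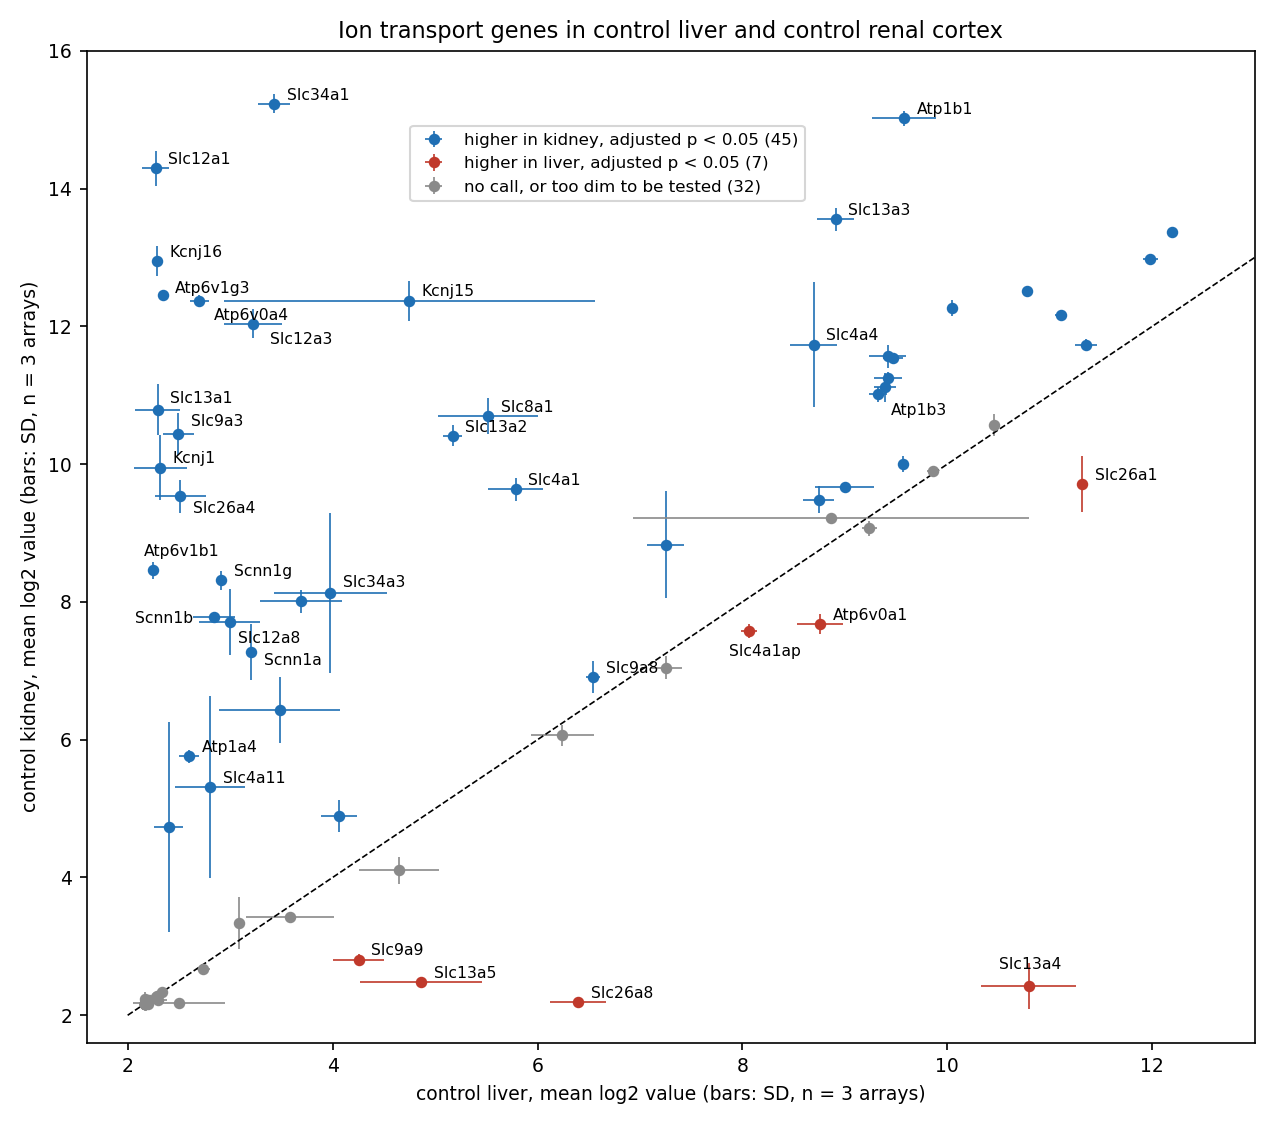
Mean log2 value of each of the 84 members in control renal cortex (vertical axis) against control liver (horizontal axis), with SD bars over 3 arrays per tissue and a dashed line of equal value. The 45 members called higher in kidney (blue) lie above the line, many of them near the lowest liver values, and Slc13a4 at the lower right is the farthest of the 7 called higher in liver (red).

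Proximal tubule transporters gave some of the widest gaps. Slc34a1, the main sodium-phosphate cotransporter of the brush border, was 15.15, 15.39 and 15.15 in the 3 control kidneys and 3.45, 3.57 and 3.26 in the 3 control livers, at least 3310-fold higher in kidney. Its treated kidneys read 15.20, 15.32 and 15.15, within the range of the controls. Slc9a3, the sodium-proton exchanger that reclaims bicarbonate, averaged 10.44 ± 0.30 (SD, n = 3) in control kidneys and was dim in liver at 2.49 ± 0.15, at least 121-fold lower. Slc13a1, the sodium-sulphate cotransporter, was dim in liver and at least 154-fold higher in kidney. Slc13a2 and Slc13a3, which carry dicarboxylates such as succinate and citrate, were 37.8-fold and 25.0-fold higher in kidney. Slc4a4, the basolateral sodium-bicarbonate cotransporter, was 8.21-fold higher in kidney, and both of its probe sets were higher there (log2 differences -3.04 and -3.50). Slc34a3, the second renal phosphate cotransporter, was at least 17.1-fold higher in kidney, and its control kidneys ranged from 7.33 to 9.46. The control arrays of the 2 tissues did not overlap for these genes, which the rule that named them required. Over all 10650 genes tested, 4562 were lower and 3505 higher in liver without overlap.

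Slc34a2, the phosphate cotransporter known from lung and gut, stood apart from its relatives. Control livers read 6.66, 9.69 and 10.24 and control kidneys 9.15, 9.21 and 9.28, so that the liver values lay on both sides of the kidney values. The log2 difference, liver minus kidney, was -0.35 with an adjusted p of 0.754 (limma), and its sign rested on the first control liver, without which it was 0.75. In treated rats Slc34a2 was higher in liver, with a log2 difference of 1.07 (adjusted p 0.00568 by limma).

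Salt transport of the ascending limb and distal tubule was also kidney-bound. Slc12a1, the sodium-potassium-chloride cotransporter of the thick ascending limb, was 14.40, 14.00 and 14.47 in control kidneys and 2.17, 2.23 and 2.42 in control livers, at or near the lowest value of the table, at least 1740-fold lower. Kcnj1, the potassium channel that recycles potassium into the lumen there, was dim in liver and at least 86.0-fold higher in kidney. Slc12a3, the sodium chloride cotransporter of the distal convoluted tubule, was 11.79, 12.15 and 12.17 in control kidneys and 3.40, 2.90 and 3.38 in control livers, at least 366-fold higher in kidney. Kcnj16, a basolateral channel subunit of the same segments, was at least 687-fold higher in kidney. Kcnj15 was at least 197-fold higher in kidney, but its control livers spread from 3.52 to 6.83 and its second probe set sat at the lowest value in all control arrays. Slc8a1, the sodium-calcium exchanger of the distal tubule and of muscle, was 36.4-fold higher in kidney by the probe set used, while its second probe set lay at or near the lowest value in both tissues. Slc12a2, the widely expressed relative of Slc12a1, differed by 1.67-fold and Slc12a7, a potassium-chloride cotransporter, by 1.58-fold, both higher in kidney.

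Collecting duct genes followed the same direction. The 3 measured subunits of the epithelial sodium channel were all higher in kidney and dim in liver, by at least 27.7-fold (Scnn1g), at least 19.2-fold (Scnn1b) and at least 13.4-fold (Scnn1a). Slc26a4, the chloride-bicarbonate exchanger pendrin of base-secreting intercalated cells, read 9.32, 9.79 and 9.48 in control kidneys and 2.23, 2.66 and 2.66 in control livers, at least 64.4-fold apart. Slc4a1, the anion exchanger of red cells and of acid-secreting intercalated cells, was 14.4-fold higher in kidney and was above the array medians in liver. Among sodium pump genes, Atp1b1 was 43.4-fold and Atp1b3 3.22-fold higher in kidney, and Atp1a4, the catalytic isoform known from sperm, read 5.74, 5.67 and 5.85 in control kidneys and was dim in liver. Slc12a8, dim in liver, was at least 18.2-fold higher in kidney.

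The proton pump showed which of its subunits are shared and which are renal. Of 19 tested subunits, 15 were higher in kidney and Atp6v0a1 was higher in liver. Atp6v1g3, Atp6v0a4 and Atp6v1b1, the isoforms known from intercalated cells, read 12.40 to 12.49, 12.31 to 12.47 and 8.38 to 8.60 in control kidneys and were dim on every control liver array, at least 487-fold, at least 460-fold and at least 30.6-fold higher in kidney. Atp6v1c2, another isoform of restricted expression, was at least 19.4-fold higher in kidney. The widely expressed subunits were bright in both tissues and differed less, from 4.65-fold for Atp6v1a, the catalytic subunit, to 1.30-fold for Atp6v0e1, all higher in kidney. The direction of the smallest of these depends on normalization. Atp6v0e1 differed by -0.37 log2 units, and Slc9a8, also at -0.37, turned when arrays were centred on their medians. Atp6v0a1, the isoform of the large membrane subunit known from neurons and other cells, was 2.11-fold higher in liver, at 8.96, 8.52 and 8.79 against 7.82, 7.67 and 7.54. Atp6v0b, Atp6v1g1 and Atp6v0a2 were not called, with log2 differences of -0.12, -0.05 and 0.21.

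Slc13a4, a sodium-sulphate cotransporter, was the member with the widest excess in liver. Its control livers read 10.27, 11.12 and 10.99 and its control kidneys 2.31, 2.80 and 2.17, at least 116-fold apart. Slc26a1, the sulphate anion exchanger of hepatocyte and proximal tubule membranes, was bright in both tissues and 3.06-fold higher in liver. Slc26a8, known as an anion exchanger of male germ cells, read 6.09, 6.61 and 6.49 in control livers and was dim in kidney, at least 5.51-fold lower. Slc13a5, the citrate transporter of liver, averaged 4.86 ± 0.59 in control livers and was dim in kidney, as was Slc9a9, an endosomal sodium-proton exchanger, so that these were at least 1.91-fold and at least 1.25-fold higher in liver. Slc4a1ap was 1.41-fold higher in liver. Slc9a8, another intracellular exchanger, was only just called higher in kidney (-0.37, adjusted p 0.0471 by limma), its direction turned to 0.0445 when arrays were centred on their medians, and the call was lost when any array other than control kidney 2 was left out (adjusted p up to 0.119).

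At the other end, 23 members were dim in all 4 groups and 8 of them sat at the lowest value on all 12 arrays. The 8 were Atp1b4, Kcnj9, Kcnj10, Slc8a2, Slc8a3, Slc26a2, Slc26a3 and Slc26a10. Inward rectifier channels made up 10 of the 23. A probe set at the lowest value gives no level for its gene: the second probe sets of Scnn1a, Slc12a7 and Slc9a9 also sat there in every group mean while the first did not.

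Some members varied widely between renal cortex arrays of the same group. The pooled within-group SD exceeded 0.5 for 5 of 60 tested members, against a median SD of 0.162, and these 5 were picked out after their values had been seen. Slc4a10, a sodium-dependent bicarbonate transporter of the Slc4a family, read 5.87, 3.01 and 5.32 in control kidneys and 6.79, 2.94 and 6.91 in treated ones. Slc4a11 read 6.77, 4.21 and 4.96 and then 5.25, 2.99 and 6.33, and Slc4a7, a sodium-bicarbonate cotransporter, 9.59, 8.04 and 8.87 and then 8.90, 6.82 and 9.48. In each of these 3 genes the array numbered 2 was the lowest of its group, and Slc12a1 and Kcnj1 were also lowest on those arrays. Slc34a3 and Slc4a4 ran differently, since control kidney 2 was the highest of its group. Slc34a3 read 7.33, 9.46 and 7.61 in control and 9.40, 8.28 and 8.87 in treated kidneys, and Slc4a4 read 11.29, 12.78 and 11.13 and then 12.74, 11.85 and 12.48. Slc5a2, a glucose cotransporter of the early proximal tubule and not a member, read 8.38, 10.12 and 8.36 in control and 10.01, 9.32 and 9.71 in treated kidneys, so that it was highest on control array 2 and lowest on treated array 2, as Slc34a3 was. Its part in the spread was not tested. Without control liver 2 the tissue call of Slc4a11 was lost (adjusted p 0.0567 by limma).

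In liver, no member differed between TCE and control rats after adjustment, and the 2 directions were unequally filled. Of 56 tested members 0 were called by limma, against 0% of the 10546 genes tested in either direction, and the lowest adjusted p of a member was 0.105. At an unadjusted p under 0.05, 4 members were higher and 8 lower in treated livers, against 8.82% and 5.84% of all genes. Treated and control values did not overlap for 2 members that were higher and 10 that were lower, against 12.2% and 8.32% of all genes. The median log2 difference was -0.0453 over the members and 0.0339 over all genes. These comparisons were made with earlier results of the same arrays known.

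The member with the smallest p in liver was Slc9a2, a sodium-proton exchanger of gut and stomach. It was dim throughout, at 2.29, 2.24 and 2.45 in treated and 3.08, 3.11 and 3.08 in control livers, so that the difference of -0.76 ± 0.08 log2 units (SE, adjusted p 0.105 by limma) is given without a fold. Slc4a1 read 4.80, 4.78 and 4.59 in treated and 5.97, 5.48 and 5.92 in control livers, 2.09-fold lower, with an adjusted p of 0.126 by limma. Its second probe set differed by -0.52. Both genes had treated values below all control values and neither passed the threshold.

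Slc13a3 was the bright member that stood higher in treated livers. It read 9.67, 9.48 and 9.53 in treated and 9.10, 8.88 and 8.75 in control livers, a log2 difference of 0.65 ± 0.11 (SE) or 1.57-fold, with an adjusted p of 0.145 by limma. Slc4a1ap was 1.23-fold higher without overlap. Slc13a1, dim in liver, and Slc4a7 had an unadjusted p under 0.05 with overlapping groups, at log2 differences of 0.60 and 0.37, but their second probe sets gave -0.04 and -0.07. Among the lower members, Atp1b3, a sodium pump subunit, read 8.67, 9.05 and 9.05 against 9.23, 9.34 and 9.41, 1.32-fold lower. Slc4a2, the anion exchanger that exports bicarbonate from many cells, differed by -0.23 ± 0.08 (SE) and Slc12a9, a member of the cation-chloride cotransporter family, by -0.43 ± 0.14. Slc13a2 differed by -0.07, with treated livers at 5.10 on all 3 arrays and controls at 5.28, 5.14 and 5.10. Its lack of overlap rested on 5.09814 in treated livers against 5.09867 in control liver 3. Atp1b1 gave opposite signs from its probe sets in liver (-0.37 and 0.73), as did Slc4a4 (0.32 and -0.67) and Kcnj16 (-0.01 and 1.39), so no direction is given for them.

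**Figure D2:**
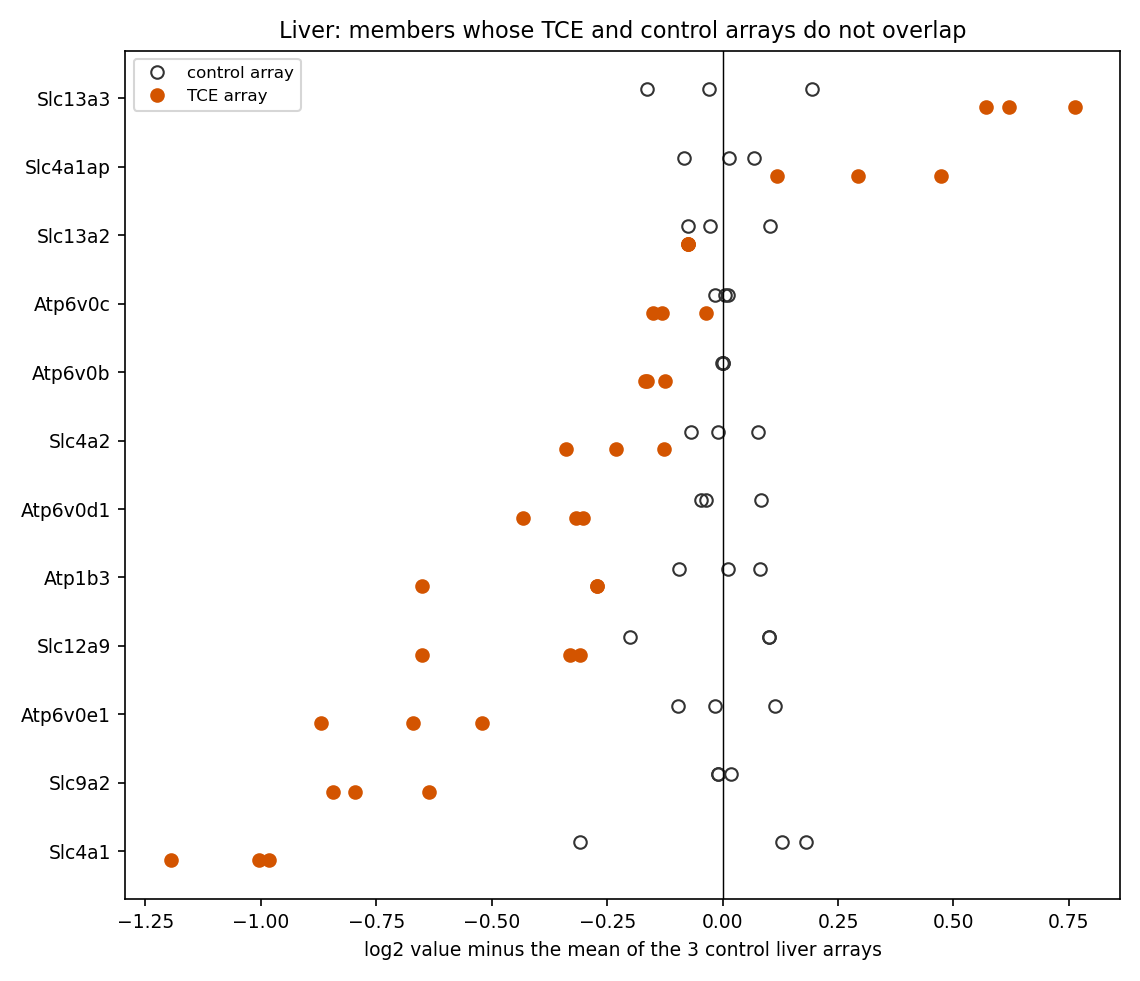
Log2 value of each liver array minus the mean of the 3 control livers, for the 12 members whose treated (filled) and control (open) arrays did not overlap. Only Slc13a3 and Slc4a1ap lie to the right, and Slc4a1, Slc9a2 and Atp6v0e1 are the farthest to the left, although no member passed the adjusted threshold.

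The Gapdh measure of RNA quality, and red cell genes, moved with the treatment in liver. The Gapdh control probe sets had a 3' to 5' gap of 1.49 ± 0.25 log2 units after TCE and 0.81 ± 0.04 after oil alone (SD, n = 3 livers each; exact two-sided permutation p = 0.1, the smallest that 3 against 3 allows). The beta-actin gap ran from 5.09 to 5.67 after TCE and from 4.31 to 5.24 after oil alone, with overlap (exact permutation p = 0.3). Of the red cell markers listed, 4 were named in the annotation and all 4 were lower in treated livers. Their summed level was 13.42 to 14.01 against 14.29 to 14.64 in controls, nearly the level of Hbb alone, so that the sum restates this gene. Hbb, a beta globin, read 13.41, 13.99 and 13.58 against 14.29, 14.27 and 14.63, and Alas2, the first enzyme of haem synthesis in red cell precursors, 5.54, 7.03 and 6.18 against 7.44, 7.18 and 8.12. Ahsp and Epb42 lay at or near the lowest value on every array. Car2, a carbonic anhydrase of red cells and intercalated cells that was listed only as an intercalated cell marker, differed by -0.74 in liver, also without overlap. Markers of smooth muscle and mesenchyme had a summed level of 6.66 to 7.19 in treated and 6.25 to 6.49 in control livers, with 4 of 5 higher. The part of these in the values of Slc4a1 and the other members was not tested.

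In renal cortex no member passed the adjusted threshold either. Of 60 tested members 0 were called by limma, against 0% of the 10559 genes tested in either direction, and the lowest adjusted p of a member was 0.205. At an unadjusted p under 0.05, 5 members were higher and 4 lower in treated kidneys, against 7.57% and 7.26% of all genes. Groups did not overlap for 6 higher and 5 lower members, against 10.3% and 9.8% of all genes. The median log2 difference was 0.0516 over the members and 0 over all genes.

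The lower members were transporters of chloride and phosphate and isoforms of the proton pump. Slc12a7 had the smallest p, at 9.31, 9.38 and 9.25 in treated and 9.71, 9.60 and 9.66 in control kidneys, a log2 difference of -0.35 ± 0.06 (SE, adjusted p 0.205 by limma). Slc34a2 read 8.75, 8.85 and 8.96 against 9.15, 9.21 and 9.28, 1.28-fold lower, with an adjusted p of 0.221. Atp6v0a1 differed by -0.34, Slc12a9 by -0.50 and Atp6v0a2 by -0.23, each without overlap. The second probe set of Atp6v0a2, with a mean of 7.05 against 7.11 for the first, differed by only -0.005. In Slc34a2 and Slc12a7 each treated kidney lay at least as far from the controls as the controls lay from each other.

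Scnn1g, the gamma subunit of the epithelial sodium channel, stood higher in treated kidneys. It read 8.77, 8.53 and 8.69 in treated and 8.17, 8.44 and 8.34 in control kidneys, a log2 difference of 0.35 ± 0.10 (SE, adjusted p 0.267 by limma), and its second probe set differed by 0.30. The other channel subunits read 7.30 ± 0.26 against 7.27 ± 0.40 (Scnn1a) and 7.74 ± 0.25 against 7.79 ± 0.04 (Scnn1b, SD, n = 3 each) and overlapped. Slc9a9 was dim in kidney and 0.38 higher on the log2 scale. Slc9a2 had an unadjusted p under 0.05 at 0.63, with treated kidneys at 3.71, 4.26 and 3.91 and controls, all dim, at 3.13, 3.11 and 3.77.

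Other transporters of the nephron segments overlapped between treated and control kidneys. Among the widest log2 differences of all tested members were those of genes with a wide spread. They were 0.81 ± 1.34 for Slc4a10, 0.72 ± 0.63 for Slc34a3 and 0.62 ± 0.50 for Slc4a4 (SE). The last 2 had intervals from -0.86 to 2.30 and from -0.63 to 1.87. Slc9a2, at 0.63, was as wide as Slc4a4 with a smaller pooled SD of 0.33. Slc13a1 differed by 0.40, Kcnj1 by 0.33 and Slc26a4 by 0.20. Slc9a3 averaged 10.45 ± 0.36 after TCE and 10.44 ± 0.30 after oil alone (SD, n = 3 kidneys each), and Slc12a1 averaged 14.45 ± 0.50 and 14.29 ± 0.25. Slc12a3 averaged 11.93 ± 0.42 and 12.04 ± 0.21, and Atp1b1 15.10 ± 0.09 and 15.02 ± 0.11. For Slc34a1 the 95% confidence interval of the difference ran from -0.241 to 0.226 log2 units. That interval bounds the change these arrays could have missed and does not show that the level was the same.

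**Figure D3:**
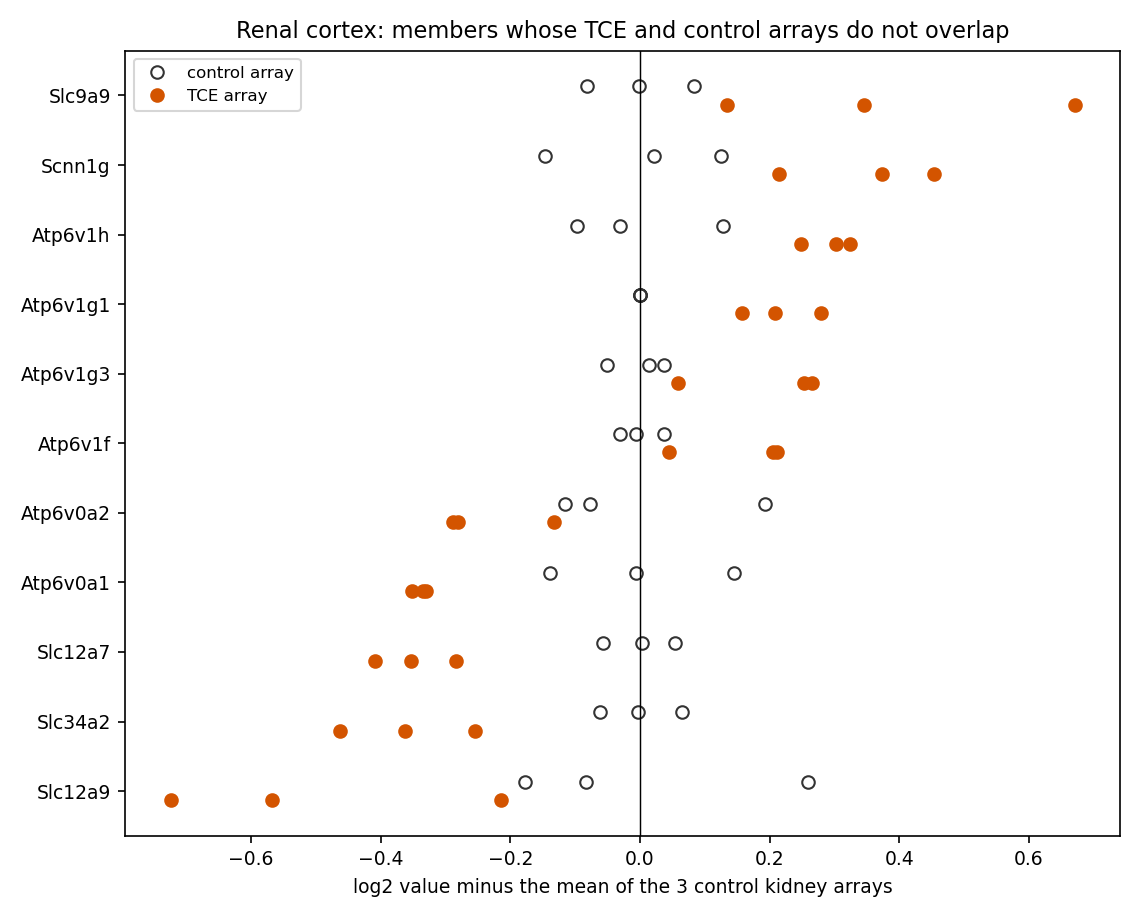
Log2 value of each renal cortex array minus the mean of the 3 control kidneys, for the 11 members whose treated (filled) and control (open) arrays did not overlap. Proton pump subunits of the V1 sector, Scnn1g and Slc9a9 lie to the right, Slc12a9, Slc34a2, Slc12a7 and the a1 and a2 isoforms of V0 to the left, and no member passed the adjusted threshold.

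Some cell type markers shifted in treated kidneys as well, although no listed marker passed the adjusted threshold. All 5 podocyte markers named in the annotation were higher (median log2 difference 0.649), with a summed level of 11.12 to 11.48 against 10.68 to 10.88. Foxi1, which drives intercalated cell genes, read 9.76, 9.62 and 9.71 in treated and 9.47, 9.22 and 9.39 in control kidneys, while Rhcg, an ammonia channel of the same cells, differed by -0.141. Intercalated cell markers together, of which Car2 was the brightest, ran from 13.07 to 13.45 against 13.04 to 13.20, with Kit at the lowest value on all arrays. Principal cell markers ran from 13.60 to 14.13 against 13.66 to 14.08. Hepatocyte markers had a lower mean in treated kidneys for 7 of 7, with overlapping groups for each. The 3' to 5' gap of beta-actin was 4.31 ± 0.09 log2 units after TCE and 4.48 ± 0.08 after oil alone (SD, n = 3 kidneys each; exact two-sided permutation p = 0.1, the smallest possible). The Gapdh gap ran from 0.51 to 0.869 after TCE and from 0.845 to 1.05 after oil alone, with overlap (exact permutation p = 0.2). The part of these markers and gaps in the member values was not tested.

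The proton pump was read by its membrane (V0) and catalytic (V1) sectors. V0 forms the proton channel in the membrane and V1 the ATP-driven motor on its cytoplasmic side. In treated livers 7 of 8 tested V0 subunits had a negative difference, with a median of -0.137, while V1 subunits split 5 and 5 with a median of -0.00542, and over all genes 4538 of 10546 differences were negative. Atp6v0a4 (-0.05), counted among the 7, and Atp6v1g3 (0.25), counted among the positive V1 subunits, were dim in both liver groups. Atp6v0e1, a small membrane subunit, read 10.48, 10.68 and 10.83 in treated and 11.47, 11.26 and 11.34 in control livers, 1.61-fold lower (adjusted p 0.138 by limma). Atp6v0d1, which couples the channel to the motor, read 11.55, 11.66 and 11.68 against 11.93, 12.06 and 11.94, 1.28-fold lower (adjusted p 0.181). Atp6v0b and Atp6v0c, which build the rotating ring, differed by -0.15 and -0.11. These 4 of the 8 tested V0 genes were named because every treated liver lay below every control liver, which held for 8.32% of all genes tested.

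In treated kidneys 7 of 8 V0 subunits again had a negative difference, with a median of -0.082, and 10 of 11 V1 subunits a positive one, with a median of 0.154, while over all genes 5287 of 10559 were positive. Atp6v1g1 read 10.19, 10.06 and 10.12 against 9.91 on all 3 control arrays, and Atp6v1h, a regulatory subunit, 10.32, 10.30 and 10.25 against 9.97, 10.13 and 9.90. Atp6v1g3 and Atp6v1f differed by 0.19 and 0.15 without overlap. Of the isoforms known from intercalated cells, Atp6v1g3 was thus higher without overlap, and its second probe set differed by 0.435. The others, Atp6v0a4 and Atp6v1b1, differed by -0.07 and 0.10 with overlapping groups. None of the 19 subunits passed the adjusted threshold in either tissue, and the sectors were not tested as sets. For Atp6v1b2 the second probe set gave -0.71 in liver and 0.68 in kidney where the first gave 0.03 and 0.17, and the second probe set of Atp6v1a, at -0.22 in kidney, opposed the first at 0.10.

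**Figure D4:**
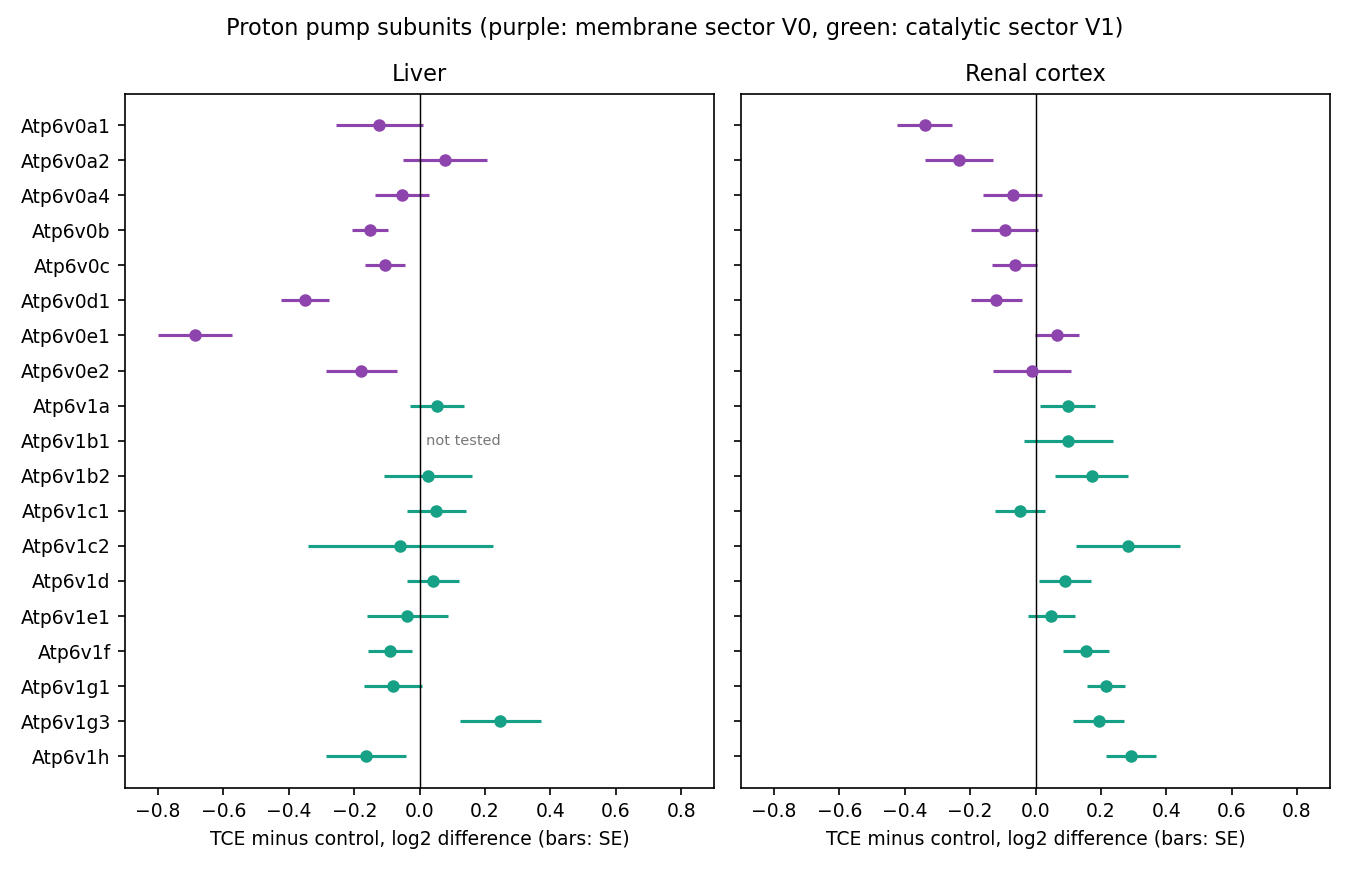
Log2 difference, TCE minus control, of each proton pump subunit tested in renal cortex, with limma's SE as bars, in liver (left) and renal cortex (right). Purple V0 subunits lie left of 0 for 7 of 8 genes in each tissue, and green V1 subunits lie right of 0 for 10 of 11 genes in renal cortex and for 5 of 10 in liver, where Atp6v1b1 was too dim to be tested. Atp6v0a4 and Atp6v1g3 were dim in both liver groups.

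The difference between the liver effect and the kidney effect was tested in 1 fit over all 12 arrays, taken as independent. Of 62 members tested 1 was called, Slc4a1, against 0.348% of the 10646 genes called in its direction and 0.188% in the other. At an unadjusted p under 0.05, 8 members had a lower effect in liver and 1 a higher one, against 7.49% and 9.99% of all genes. For Slc4a1 the liver effect minus the kidney effect was -1.38 ± 0.24 log2 units (SE, 95% confidence interval -1.90 to -0.85, adjusted p 0.0422 by limma). Treated and control kidneys overlapped for Slc4a1, at 10.08, 9.63 and 10.13 against 9.82, 9.49 and 9.59, a log2 difference of 0.32. The call was lost in 10 of the 12 fits that left out 1 array, where the difference ran from -1.53 to -1.28 and the adjusted p reached 0.114. It held without treated kidney 2 and without control liver 2. With a block for arrays of equal number, a pairing the labels do not give, 0 members and 0% of all genes were called. Averaging both probe sets gave -1.09 with an adjusted p of 0.145, and with no filter on dim genes the adjusted p was 0.0596.

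**Figure D5:**
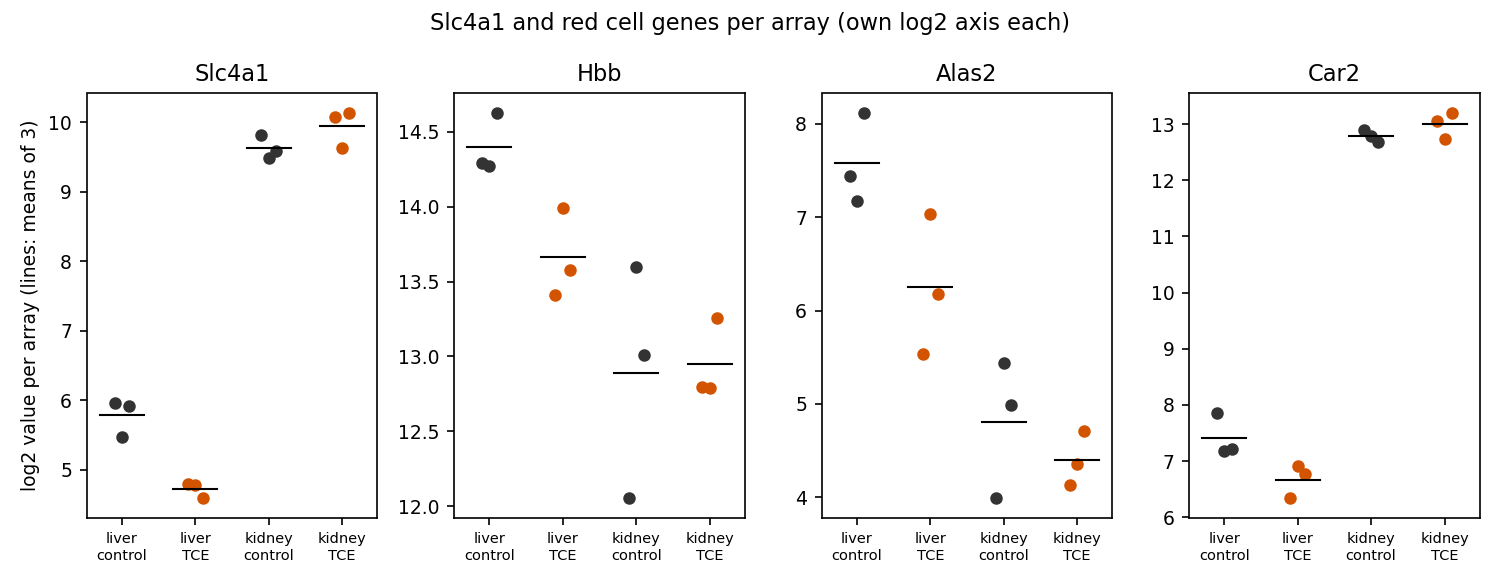
Log2 value per array (points) and group mean (lines) of Slc4a1, the red cell markers Hbb and Alas2, and Car2 in the 4 groups. Car2 was listed as an intercalated cell marker and not as a red cell marker. Each panel has its own log2 axis that does not start at 0. In liver the treated values (orange) of all 4 genes lie below the control values, and in renal cortex the groups overlap for each of them.

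Other members came close in the same fit. Slc9a2 had a difference of -1.39 ± 0.26 log2 units (SE) and Atp6v0e1 of -0.75 ± 0.14, both with an adjusted p of 0.051 by limma. Slc13a3 had the only positive difference with an unadjusted p under 0.05, at 0.69 ± 0.17 (adjusted p 0.105). Differences of Atp1b3, Atp6v1h, Scnn1g and Atp6v1g1 were -0.58, -0.46, -0.35 and -0.30, with adjusted p from 0.181 to 0.229. Scnn1g read 2.91 on all 6 liver arrays, so that its value restates the kidney difference. Slc9a2 was dim in all livers and in all 3 control kidneys. When all 12 arrays shared 1 estimate of the spread, the liver effects of Atp6v0e1, Slc4a1 and Slc13a3 passed the threshold (adjusted p 0.0136, 0.0204 and 0.0326 by limma). That of Slc9a2 did not (0.0744). In that fit 138 of all 10646 genes tested (1.3%) were called in liver.

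Genes that work with these transporters were read from 3 lists. Of 26 tested regulators of sodium and potassium transport, 18 were higher in control kidney and 2 in control liver, where 38.9% and 29.7% of all genes were. Log2 differences in this paragraph are fitted values and no bounds where a tissue was dim. Those higher in kidney included Stk39, the kinase that activates sodium chloride cotransporters (log2 difference -6.77), Hsd11b2, which shields the mineralocorticoid receptor from cortisol-like hormones (-6.40), and Fxyd2, a modulator of the sodium pump (-6.93), and Fxyd1, its relative known from heart and muscle, was higher in liver (7.13). Of 18 acid-base genes, 9 were higher in kidney, Rhcg (-7.92) and Foxi1 (-6.35) among them, and 8 in liver, including the mitochondrial carbonic anhydrase Car5a (7.76). Of 12 phosphate genes, 7 were higher in kidney, including Kl, the FGF23 co-receptor klotho (-4.41), the PTH receptor Pth1r (-3.96) and the scaffold Pdzk1 (-3.72), and 2 in liver, among them the housekeeping phosphate transporter Slc20a2 (1.88).

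After TCE none of these genes passed the threshold in either tissue, and 4 were higher and 2 lower in liver, 5 higher and 2 lower in renal cortex, at an unadjusted p under 0.05. The shares over all genes were 8.82% and 5.84% in liver and 7.57% and 7.26% in renal cortex. The liver genes were Sgk3 (0.37), Oxsr1 (0.349), Fxyd6 (0.473), Kcnk1 (-0.859), Car2 (-0.74) and Fgfr1 (0.437), with log2 differences in parentheses and adjusted p from 0.287 to 0.335. Those of renal cortex were Nedd4l (-0.226), the ubiquitin ligase that removes the epithelial sodium channel, Kcne1 (-0.341), Nr3c1 (0.165), Car8 (0.249), Foxi1 (0.336), Glud1 (0.17) and Kl (0.719), with adjusted p from 0.254 to 0.317. The medians of the 3 lists ran from -0.0279 to 0.0543 in liver and from -0.0925 to 0.0726 in renal cortex.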

How the data were processed

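Per the labels' protocols, about 50 mg of tissue was taken from each rat and its RNA hybridised to GeneChip rat genome 230 2.0 arrays. The authors deposited 1 table of log2 values, 31099 probe sets by 12 arrays, with a lowest value of 2.17 and a highest of 16.5; the range of the values is the basis for calling them log2. The packages affy and limma are named in the submitters' processing notes, and the sources used here do not give versions, normalization or summary method. Gene names came from the platform annotation held by GEO, in which 20826 had 1 symbol (14217 genes) and 436 several. The gene IDs of all 84 members were found in the RefSeq table of assembly GRCr8.

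Each gene was tested on the deposited log2 values in R 4.3.3 with limma 3.58.1 (two-sided tests from lmFit and eBayes, Benjamini-Hochberg over all genes of a fit, threshold 0.05), if the gene's average across the fitted arrays was above the 40th percentile over probe sets. No covariate was used. The fits were TCE against control in each tissue (6 arrays), the difference of these effects (12 arrays treated as independent) and control liver against control kidney (6 arrays). SE is limma's moderated standard error, and p-values measure the spread between 3 rats per group. The tests were tried on simulated data with known changes. The members and the gene lists were chosen with earlier results of these data known.

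Members were named by rule: up to 3 per family and direction with the largest tissue difference among called genes, up to 10 per direction with the smallest p among members whose treated and control arrays did not overlap, the 8 with the smallest p for the difference of effects, and preset transporters by level. Alternatives were no filter, a 60th percentile filter, the mean of probe sets, quantile normalization again, median centring, array weights, variances with trend and robust settings, a replicate block, a threshold of 0.1, all 12 arrays in a fit, and leaving out each array.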

Additional observations from a re-analysis of the deposited data

Results flagged for a closer look

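The log2 difference of Slc4a1 between treated and control rats differed between the tissues, with a liver effect minus kidney effect of -1.38 ± 0.24 log2 units (SE, adjusted p 0.0422 by limma over 10646 genes). The call was lost in 10 of the 12 fits that left out 1 array (adjusted p up to 0.114), with no filter on dim genes (0.0596), with averaged probe sets (0.145) and with a replicate block (0.144). Treated livers lay below all 3 control livers, and treated and control kidneys overlapped. Hbb and Alas2 were also lower in treated livers without overlap and overlapped in kidney, and the part of red cell RNA in the Slc4a1 values was not tested.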

How the results depend on the processing

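The count of members called for the difference of effects, 1 in the main analysis, was 0 with no filter on dim genes and 0 with a replicate block, 2 with the 60th percentile filter, the mean of probe sets, quantile normalization, median centring, or trend and robust variances, 3 with array weights or a threshold of 0.1, and 0 to 1 when an array was left out. Of all genes, 0.479% to 0.798% were called where 2 members were, 1.16% with array weights and 1.78% at 0.1. The called members changed: the mean of probe sets called Atp6v0e1 and Slc9a2, not Slc4a1. Without treated liver 3 only Atp6v0e1 was called, and without control kidney 3 only Slc9a2. In liver, the count of 0 became 3 when all 12 arrays shared a fit, where 1.3% of all genes were called. It stayed 0 under the other alternatives run, and in kidney it stayed 0 under all of them. Between control tissues 39 to 55 members were called, the lowest count under the 60th percentile filter, and a replicate block gave 53. Of all genes tested, 48.1% to 75.9% were called in these fits. Of the values of single named members, 735 kept direction and side of the threshold, 21 lost and 6 gained a call, and 1 turned: Slc9a8 between control tissues, 0.0445 under median centring. The causes were not tested. Deviations from group means of liver and kidney arrays with equal numbers correlated across genes at 0.0582, 0.0482 and 0.0801 in control rats and 0.00633, -0.00698 and 0.0643 in treated rats. Each control array correlated best with its own number and treated arrays did not all do so, a hint from the data only, and the numbers were not taken as pairs. With the replicate block the Slc4a1 difference had an adjusted p of 0.144 by limma. Dim genes carry only bounds, and 3 arrays per group limit every count.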
